A study of Mus musculus with 16 samples.

Results

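The data described here are the RNA levels of 10 neighbouring protein-coding genes on mouse chromosome 11, from Tmem88 to Fxr2, with Trp53 near the middle. These 10 genes, of 54453 in the deposited table, were matched by gene symbol, and they span 256.8 kb. The group was selected on the values of Dnah2, far higher in the MEF-1 lines than in the MEF-2 lines, with the others taken as its neighbours, so their differences between these sets are given as a description, without a test. The study asked how faithfully DNA methylation is passed on through cell divisions, and measured RNA in the same lines. The lines were mouse embryonic fibroblasts (MEFs), connective tissue cells, from 2 sibling C57BL/6J embryos at E13.5, immortalised by passaging them serially through crisis. The embryo behind MEF-1 was male and that behind MEF-2 female. Each set held 1 parental line and 7 clonal lines, each grown from 1 sorted cell of its parental line, with no other treatment, and each of the 16 lines gave 1 RNA library. Each set therefore stands for 1 embryo and 1 immortalisation, so sex, embryo and culture history cannot be told apart, and the spread is that between clonal lines.

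Trp53 encodes p53, a transcription factor that is stabilised by DNA damage and other stress and switches on genes that stop the cell cycle or start cell death. Mouse fibroblasts escape senescence in culture when the p53 pathway is disabled, and Cdkn2a, whose product ARF holds back the p53 inhibitor MDM2, lies in the same pathway. The genes around Trp53 have unrelated roles. Dnah2 encodes a heavy chain of axonemal dynein, the motor that bends motile cilia and sperm tails, and fibroblasts do not carry motile cilia.

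The deposited values were rlog values, log2 counts that DESeq2 shrinks towards a gene's mean over the lines where counts are low, so differences are on the log2 scale and are understated for low genes. Read totals were not analysed here, and the depth behind each value is unknown. Of the 10 genes, 9 passed the filter of an average above 0 over the 16 lines; Shbg did not. Of 8 fibroblast markers 8 had an average above 0, and their summed level was 22.24 to 22.72 in MEF-1 clones and 22.06 to 22.77 in MEF-2 clones. Between the sets 1 of the 8 was called higher in MEF-1 (Col3a1, by 0.60) and 2 lower (Fbn1, at -0.45, and Thy1, at -2.59), in a fit that called 28.6% of all genes tested higher and 27.5% lower. Thy1, a surface marker, was low in MEF-1, at 2.72 to 3.43, and ranged widely in MEF-2, from 3.42 to 8.02. Of the lists for other cell types, the epithelial, leukocyte and skeletal muscle lists had no gene called between the sets, and the endothelial list had 1 higher in MEF-1. Tubb3 and Map2 of the neural list were lower in MEF-1, while Sox10 was at -1.94 to -1.80 there. Alb and Afp of the hepatocyte list were called higher, at no more than 1.74 and 3.96. Alb was at the level of a gene with no reads in MEF-2, so its difference could only be positive and its call is not read. In bulk RNA, fewer cells of a type and less RNA per cell cannot be told apart.

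Promoter windows of 300 bases, from 250 before to 50 after the RefSeq start, were found for 6 of the 10 genes on GRCm38.p6 (mm10). The windows of Dnah2, the gene with the large difference, of Trp53, and of Fxr2, are shown as those of the gene that chose the group, the gene at its centre and the gene at its end. Capitals mark CG dinucleotides, the sites of DNA methylation. Dnah2 lies on the minus strand and its window is chr11:69549059-69549358. Trp53 lies on the plus strand, with the window chr11:69580109-69580408, and Fxr2 on the plus strand, with chr11:69632721-69633020.
Dnah2: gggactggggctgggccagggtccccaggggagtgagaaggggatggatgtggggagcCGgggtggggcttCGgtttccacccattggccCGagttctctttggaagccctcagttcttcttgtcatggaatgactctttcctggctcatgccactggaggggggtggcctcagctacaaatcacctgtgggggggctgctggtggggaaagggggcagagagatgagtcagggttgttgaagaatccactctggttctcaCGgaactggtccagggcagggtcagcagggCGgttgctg
Trp53: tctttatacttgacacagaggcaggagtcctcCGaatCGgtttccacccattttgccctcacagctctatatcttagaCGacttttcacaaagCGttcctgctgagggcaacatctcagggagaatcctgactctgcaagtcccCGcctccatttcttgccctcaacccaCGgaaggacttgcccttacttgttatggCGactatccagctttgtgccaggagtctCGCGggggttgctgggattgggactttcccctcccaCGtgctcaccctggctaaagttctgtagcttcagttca
Fxr2: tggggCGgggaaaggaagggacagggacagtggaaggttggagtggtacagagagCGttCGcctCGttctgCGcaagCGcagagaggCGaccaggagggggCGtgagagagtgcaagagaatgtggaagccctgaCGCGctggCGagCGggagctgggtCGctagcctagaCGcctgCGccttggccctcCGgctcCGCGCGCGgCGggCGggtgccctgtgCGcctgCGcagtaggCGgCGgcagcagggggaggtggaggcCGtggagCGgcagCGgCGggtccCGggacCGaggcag

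The Dnah2 window held 5 CG, the Trp53 window 10 and the Fxr2 window 32, against a median of 7 over 32851 promoter windows of the same length. At least as many CG as in Dnah2 were found in 62.0% of windows, and as many as in Fxr2 in 9.5%. The Sat2 window held 10 CG and the Shbg window 4, and the windows of the 2 Wrap53 starts held 9 and 21. Of the motifs searched on both strands, CCAAT was found 1 time each in the windows of Dnah2, Trp53 and Sat2 and 2 times in the nearer Wrap53 window, and was present in 37.4% of all windows. The GC box GGGCGG, whose CG is also counted above, was found 1 time in Dnah2 and 2 times in Fxr2 (35.7% of all windows), and TATAAA 1 time each in Trp53 and Shbg (13.6%). GTTGCC, a short core of the X-box read by RFX factors in ciliated cells, was in the Trp53 window and in the nearer Wrap53 window (12.5% of all windows) and not in the Dnah2 window. The Trp53 window and the nearer Wrap53 window cover 208 of the same bases on opposite strands, since these genes are transcribed away from each other from starts 104 bases apart. Their GTTGCC match is therefore the same site, and the CCAAT match of Trp53 is also among those counted for Wrap53. The longest run of bases that the Dnah2 and Trp53 windows had in common was 16 bases, tCGgtttccacccatt, whose first base lies at position -180 from the Dnah2 start and -214 from the Trp53 start. On either strand this run was found in 2 of the 32851 windows, those of these 2 genes. It was noticed after the sequences had been read, and a shared run is not a binding site.

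Dnah2, whose values chose the group, had the widest gap between the sets among the 10 genes. Its rlog value in the 7 MEF-1 clonal lines had a lowest value of 11.93, a median of 12.13 and a highest of 12.20, and the MEF-1 parental line was at 12.10. In the 7 MEF-2 clonal lines the lowest value was 6.01, the median 6.13 and the highest 6.38, with the parental line at 5.98. All 8 MEF-1 lines thus lay far above all 8 MEF-2 lines, and the parental lines lay close to their own clones. The clonal means were 12.12 ± 0.09 (SD, n = 7) and 6.16 ± 0.13 (SD, n = 7) and differed by 5.97 on the log2 scale, with 6.12 between the parental lines. No fold is given, since the MEF-2 value was near that of a gene with no reads. The gene (ENSMUSG00000005237) lies at chr11:69420809-69549110 on the minus strand (GRCm38).

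**Figure D1:**
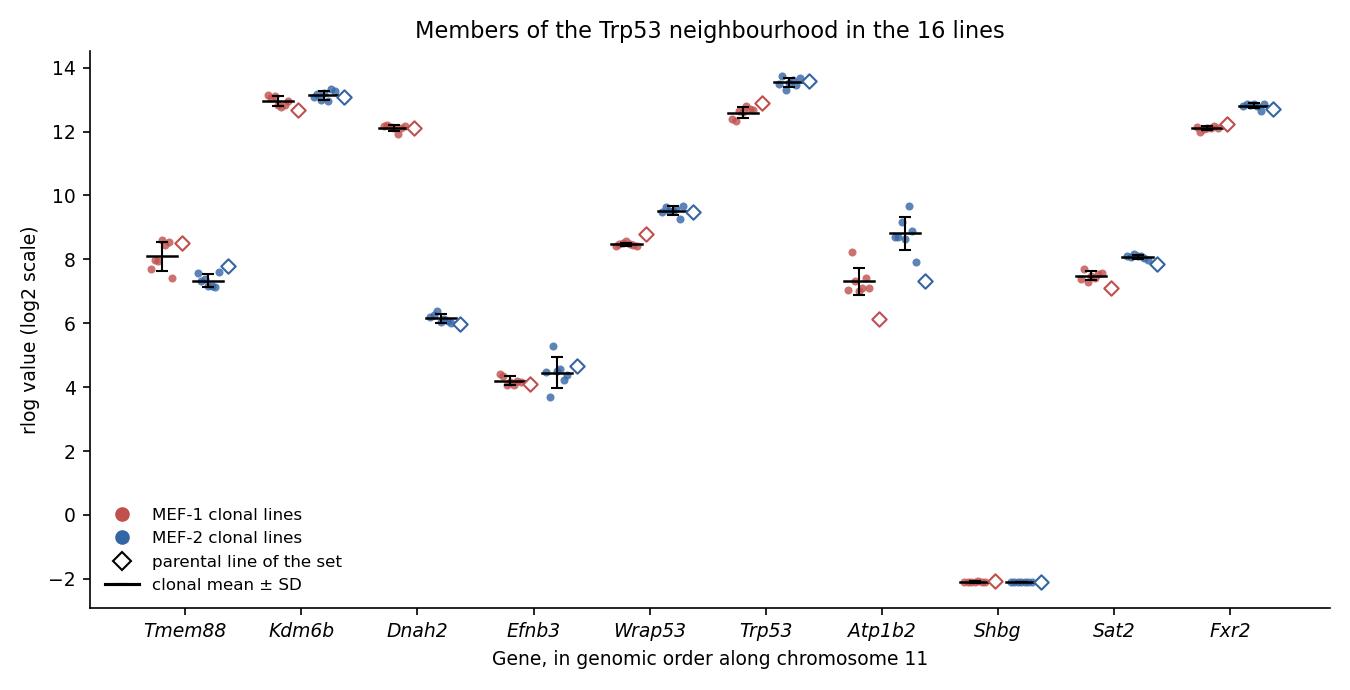
rlog values (log2 scale) of the 10 genes, in genomic order, in the MEF-1 (red) and MEF-2 (blue) lines; points are clonal lines, diamonds parental lines, and black bars the clonal mean ± SD (n = 7). Dnah2 sits near 12.12 in MEF-1 and 6.16 in MEF-2, while Wrap53, Trp53, Sat2 and Fxr2 sit lower in MEF-1 with no overlap between the clonal lines.

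The Dnah2 level in MEF-2 was near the value that rlog gives a gene with no reads in one set and many in the other. Y-linked genes, which the female MEF-2 line lacks, show that value: Ddx3y, an RNA helicase gene, was at 5.58 to 5.68 in the 8 MEF-2 lines, and Uty, a histone demethylase paralogue of Kdm6a, at 4.48 to 4.63. The 4 Y-linked genes examined varied over MEF-2 lines by 0.10 to 0.16 and followed the level of genes without reads with a Pearson r of at least 0.9991 over these 8 lines. Dnah2 varied more, by 0.40 over the same lines, with an r of 0.61. These values are a description over lines that share 1 normalisation, and how many reads Dnah2 had in MEF-2 cannot be read from them.

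Trp53 itself (ENSMUSG00000059552, chr11:69580359-69591873, plus strand) went the other way. In the MEF-1 clonal lines its rlog value had a lowest value of 12.32, a median of 12.64 and a highest of 12.80, with the parental line at 12.90. The MEF-2 clonal lines had a lowest value of 13.31, a median of 13.52 and a highest of 13.74, with the parental line at 13.58. The clonal sets did not overlap, and both were high. The means of 12.59 ± 0.17 and 13.54 ± 0.14 (SD, n = 7 each) differed by -0.95, a level 1.93-fold lower in MEF-1, and the parental lines differed by -0.69.

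Wrap53 (ENSMUSG00000041346) starts beside Trp53 on the opposite strand and encodes a WD40 protein that guides telomerase RNA to Cajal bodies. Its level was 8.40 to 8.57 in the MEF-1 clones (median 8.47, parental line 8.78) and 9.26 to 9.68 in the MEF-2 clones (median 9.52, parental line 9.49). Every MEF-1 line was below every MEF-2 line, and the clonal means differed by -1.05, or 2.07-fold. The gene bodies of Wrap53 and Trp53 do not overlap in the annotation, the library kit kept strand, and the strand setting of the quantification was not given in the sources used here.

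Fxr2 and Sat2 were lower in MEF-1 as well. Fxr2 (ENSMUSG00000018765), an RNA-binding paralogue of the fragile X protein FMRP, was at 11.99 to 12.18 in the MEF-1 clones (median 12.11, parental line 12.22) and at 12.66 to 12.88 in the MEF-2 clones (median 12.84, parental line 12.71). Sat2 (ENSMUSG00000069835), of the spermidine and spermine acetyltransferase family, was at 7.29 to 7.70 in the MEF-1 clones (median 7.49, parental line 7.11) and at 7.99 to 8.18 in the MEF-2 clones (median 8.10, parental line 7.84). Neither gene overlapped between the clonal sets, with differences of -0.71 for Fxr2 and -0.60 for Sat2. Their parental lines differed by -0.48 and -0.73.

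Atp1b2 (ENSMUSG00000041329), a beta subunit of the sodium and potassium pump known from glia, had a large difference and a wide spread. It was at 7.01 to 8.22 in the MEF-1 clones (median 7.10, parental line 6.12) and at 7.93 to 9.66 in the MEF-2 clones (median 8.70, parental line 7.32). The ranges overlapped only through MEF-1 line 2, at 8.22, which was above MEF-2 line 7, at 7.93; the other 6 MEF-1 clones lay below every MEF-2 clone. The clonal means of 7.32 ± 0.43 and 8.81 ± 0.53 (SD, n = 7 each) differed by -1.49, and the parental lines by -1.19.

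The other 4 genes overlapped between the clonal sets. Tmem88 (ENSMUSG00000045377), a membrane protein that binds Dishevelled and dampens Wnt signalling, was at 7.42 to 8.61 in the MEF-1 clones and 7.14 to 7.60 in the MEF-2 clones. Its sets overlapped, all 7 MEF-1 clones were above the MEF-2 mean, and the difference was 0.76, with 0.72 between the parental lines. Tmem88 shares 162 bases with Naa38 on the opposite strand. Kdm6b (ENSMUSG00000018476), an H3K27 demethylase, was high and overlapping, at 12.76 to 13.15 and 12.96 to 13.32, with a difference of -0.18 and of -0.40 between the parental lines. Efnb3 (ENSMUSG00000003934), a transmembrane ephrin ligand of Eph receptors, was at 4.07 to 4.41 in the MEF-1 clones and at 3.69 to 5.30 in the MEF-2 clones, and its difference of -0.25 was within the MEF-2 SD of 0.48; it was -0.11 without MEF-2 line 3 and -0.38 without MEF-2 line 2. Its parental lines differed by -0.59. It lies between Dnah2 and Wrap53, the genes whose differences had opposite signs. Shbg (ENSMUSG00000005202), the sex hormone binding globulin, was near the level of genes without reads in all 16 lines, at -2.11 to -2.05.

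The limma fit between the clonal sets, with a call at an adjusted p under 0.05, gives the background for the genes below, calling 28.6% of all genes tested higher in MEF-1 and 27.5% lower. Of the 9 genes of the group in that fit, 2 were on the higher side (Dnah2 and Tmem88) and 5 on the lower (Wrap53, Trp53, Atp1b2, Sat2 and Fxr2). Without overlap between the clonal sets, 1 was higher, beside 13.6% of all genes tested, and 4 were lower, beside 12.3%. This contrast chose the genes, so these counts are no test of them and nothing is read from them.

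Divided by exonic length (rlog minus log2 of the exonic kb), which allows levels to be compared between genes, Trp53 had the highest mean in both sets, at 10.58 in MEF-1 and 11.53 in MEF-2. In MEF-1 it was followed by Fxr2 at 10.19 and Kdm6b at 10.16, which overlapped each other, and Kdm6b also overlapped Trp53, and then by Dnah2 at 8.22. Tmem88 and Wrap53, both at 7.43, and Sat2 at 6.98 came next, and the clonal lines of Tmem88 overlapped those of both others, followed by Atp1b2 at 5.28 and Efnb3 at 2.53. In MEF-2 the order was Trp53, Fxr2 at 10.90, Kdm6b at 10.34, Wrap53 at 8.48, Sat2 at 7.57, Atp1b2 at 6.78, Tmem88 at 6.67 and Efnb3 at 2.78. The clonal lines of Atp1b2 overlapped there with those of Sat2 and of Tmem88, so Atp1b2 is not set apart from either. Dnah2 is not ranked in MEF-2, since its value there was near that of a gene with no reads.

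The neighbourhood was then followed over 500 kb to each side of the Trp53 start, which holds 64 protein-coding genes, 57 of them tested. On the Tmem88 side, the 16 tested genes before Dnah2 were mixed: 7 were called higher and 4 lower in MEF-1, with a median difference of 0.08. Among them Chd3, a chromatin remodeller, differed by -1.03, Kcnab3 by -1.12, Trappc1 by -0.49, Cyb5d1 by 0.34 and Gucy2e by 1.04, each without overlap. From Wrap53 to Slc2a4, a span of 386.4 kb, 20 of 30 tested genes were called lower in MEF-1 and 3 higher, with a median difference of -0.65. The boundaries of this run were set after its values had been seen, so it is a description without a test. Outside the 500 kb window, 314 of 1177 tested genes of chromosome 11 were called higher and 314 lower, with a median of -0.0044.

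The run was most even among its well expressed genes. All 13 genes of the run with an average above the 60th percentile of protein-coding genes (9.95) were called lower, with differences from -1.20 to -0.46 and a median of -0.95, and 12 of them did not overlap. Besides Trp53 and Fxr2 these included Eif4a1, a translation initiation helicase, at -1.17, Polr2a, the large subunit of RNA polymerase II, at -0.84, Senp3, a SUMO protease, at -0.83, Eif5a, a translation factor, at -0.98, Mpdu1 at -0.88, Plscr3 at -1.20, Neurl4 at -1.07, Kctd11 at -1.09, Tmem256 at -0.96 and Nlgn2 at -0.56. Zbtb4, at -0.46, was the one that overlapped. Gps2, 2810408A11Rik and Slc2a4, the insulin-responsive glucose transporter gene, also did not overlap, at -0.53, -1.92 and -2.54. Tnfsf12, a cytokine gene of the TNF family, was higher in MEF-1 at 0.57 without overlap, and Tnfsfm13 and Ybx2 were called higher with overlap. Between the parental lines these 3 had the opposite sign, at -0.11, -0.51 and -0.06. Tnfsfm13 spans Tnfsf12 on the same strand, so how reads were divided between them is uncertain. Without the 5 tested genes of the group described here, the run had 25 tested genes, 15 lower and 3 higher, with a median of -0.53. These lie within the bounds set after the values had been seen, so they add no support. Between the parental lines, from which the clones were grown, 27 of the 30 were lower in MEF-1, with a median of -0.63. Outside the 500 kb window, 539 of 1177 tested genes of chromosome 11 were lower in the MEF-1 parental line, with a median of 0.03. Beyond Slc2a4, 2 of 9 tested genes were called higher (Cldn7 at 0.48 and Acadvl at 0.27) and 2 lower, with a median of 0.05, with Gabarap at 0.0046 and Ctdnep1 at 0.05, while Elp5 and Phf23 were lower without overlap, at -0.38 and -0.26.

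**Figure D2:**
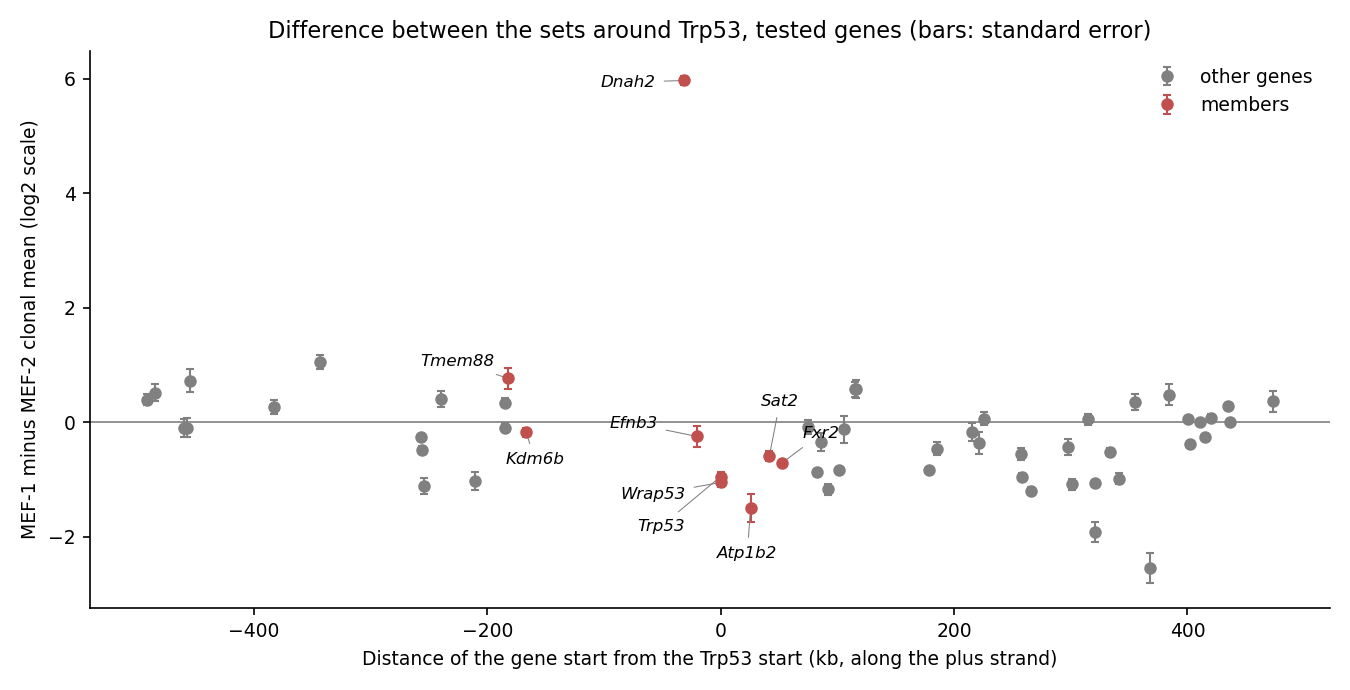
MEF-1 minus MEF-2 difference of clonal means (log2 scale; bars, standard error) of the 57 tested genes against the distance of their start from the Trp53 start in kb; red, the genes described here, grey, the others. Dnah2 stands alone at 5.97, at a distance of -31.2 kb, and most genes after it lie below 0 up to Slc2a4 at -2.54.

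The level of chromosome 11 as a whole was compared beside this run. This level, the median over 1055 genes without the 10 described here of each line's deviation, was -0.01 ± 0.05 in MEF-1 and 0.00194 ± 0.0134 in MEF-2 (SD, n = 7 each). The difference of -0.0142 was within the spread between lines (exact permutation test, two-sided, p = 0.684). MEF-1 line 6 had the lowest level, -0.12, and without it the difference was 0.0038.

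The change from parental to clonal lines was not used in choosing the genes, and was tested with limma over all 16 lines, with the lone parental library of each set assumed to vary like the clones. No gene of the group was called. In all, 21 of 15285 genes (0.137%) were called in MEF-1, 89 (0.582%) in MEF-2, and 42 (0.275%) for a difference of the change between the sets. At an unadjusted p under 0.05, Atp1b2 and Sat2 passed in MEF-1, where 2603 of 15285 genes did, and Atp1b2 in MEF-2, where 1227 did, so these are shares near the background. Atp1b2 was above its parental line in 7 of 7 clones of both sets, by 1.19 (SE 0.48, limma adjusted p = 0.232) in MEF-1 and by 1.49 (SE 0.48, adjusted p = 0.343) in MEF-2. Sat2 was above its parental line in 7 of 7 clones of both sets too, by 0.38 (SE 0.17, limma adjusted p = 0.288) and 0.24 (SE 0.17, adjusted p = 0.842). Trp53, Wrap53 and Fxr2 were below the parental line in 7 of 7 MEF-1 clones, with changes of -0.30 (SE 0.16), -0.31 (SE 0.15) and -0.12 (SE 0.09). In MEF-2 these changes were -0.04, 0.03 and 0.11. Each count of 7 of 7 rests on the 1 parental library of its set. How often other genes gave such a count was not examined, so nothing is read from these counts. The difference of the change between the sets had limma adjusted p values of 0.909 for Trp53, 0.837 for Wrap53 and 0.779 for Fxr2. Dnah2 changed by 0.02 (SE 0.15) in MEF-1 and 0.17 (SE 0.15) in MEF-2. The MEF-1 count of 21 rested on single libraries: it was 336 without MEF-1 line 5, 48 without line 4, 8 without line 3 and 11 without line 7. It was 9, 7, 61, 6 and 12 without MEF-2 lines 1 to 5, each left out alone. No gene of the group was called in any of these fits.

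Within each set, Dnah2 was compared with the other 9 genes over the 7 clonal lines, 18 relations in all. None had a Benjamini-Hochberg adjusted p under 0.05 (lowest 0.292, exact permutation test), 3 had an unadjusted Pearson p under 0.05 and none an unadjusted Spearman p. In MEF-1 these were Kdm6b, with r = 0.71 (exact permutation p = 0.031) and rho = 0.71 (exact permutation p = 0.088), and Shbg, whose relation is not read, since it lay near the level of genes without reads and its spread came from MEF-1 line 5 (-2.06). In MEF-2 it was Sat2, with r = 0.76 (exact permutation p = 0.049) and rho = 0.50 (exact permutation p = 0.267). In the other set, Kdm6b had the opposite sign, with r = -0.64 in MEF-2 (exact permutation p = 0.128). Sat2 had r = 0.39 in MEF-1 (exact permutation p = 0.389). Without the 2 lines farthest from the Dnah2 median, r was 0.56 for Kdm6b in MEF-1, -0.69 for Kdm6b in MEF-2 and 0.60 for Sat2 in MEF-2. In MEF-1 r then moved from -0.59 to -0.93 for Tmem88 and from -0.43 to -0.88 for Wrap53, over the 5 lines left. Dnah2 and Trp53 had r = -0.71 (exact permutation p = 0.070) and rho = -0.64 (exact permutation p = 0.139) in MEF-1 and r = -0.37 (exact permutation p = 0.406) and rho = -0.29 (exact permutation p = 0.556) in MEF-2.

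The genes most like Dnah2 by Pearson r were sought among 13123 protein-coding genes with an average above the 40th percentile. Over all 16 lines, which fall into the 2 sets and so mostly restate their difference, the 5 highest were Ddx3y (0.993), Ide (0.993), Uty (0.992), Kdm5d (0.991) and Eif2s3y (0.988). All of these but Ide, a protease gene of chromosome 19, lie on the Y chromosome. Ide differed far less than Dnah2, with means of 14.19 and 13.22. Chromosome 19 is one of those reported as aneuploid. Its level was 0.15 to 0.21 in the MEF-1 clones and -0.23 to -0.17 in the MEF-2 clones (464 genes). The part of this level in the difference of Ide was not tested. Once the mean of each set was taken away, the 5 highest over the 14 clonal lines were 4931414P19Rik (0.895), Med12 (0.893), Dnmbp (0.878), Nwd1 (0.856) and Xrcc5 (0.855). None of these 5 lies on chromosome 11. Over the same 14 lines r with Dnah2 was -0.50 for Trp53, -0.04 for Wrap53 and 0.03 for Fxr2.

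Divided by exonic length, Dnah2 was the highest of 15 axonemal dynein heavy chain genes in MEF-1, at 8.22, and Dnah7b came next at 3.68. Its place in MEF-2 is left out for the reason given above. Of the 14 others, 13 were tested, and 4 were called higher and 1 lower in MEF-1, with a median difference of 0.24. Dnah7b was at 6.71 to 8.86 in the MEF-1 clones and 5.42 to 6.97 in the MEF-2 clones, a difference of 2.04 (SE 0.34, limma adjusted p = 0.00015), and these ranges overlapped. Dnah7a, Dnah7b and Dnah7c are near-identical copies, so how their reads were divided is uncertain. Dnah10 and Dnah17 did not overlap and were higher in MEF-1 by 1.15 (SE 0.17, limma adjusted p = 4e-05) and 1.04 (SE 0.16, adjusted p = 5.8e-05). Dnah14 was lower in MEF-1, at 2.20 to 2.38 against 2.89 to 5.05, by -1.83 (SE 0.23, limma adjusted p = 1.2e-05). Of 29 other genes of motile cilia, such as assembly factors, radial spokes and tektins, 23 were tested, 9 were higher and 2 lower. Rsph9, of the radial spoke head, was higher in MEF-1 by 1.78, Ccdc151, a dynein docking factor, by 1.74 and Tekt2 by 1.03, and the assembly factor Dnaaf2 differed by -1.09 (limma adjusted p from 2.9e-08 to 7.4e-05). Between the parental lines the differences of these genes had the same signs and were smaller, apart from Dnah10 at 1.22: Dnah7b differed by 0.31, Dnah17 by 0.26, Dnah14 by -0.78, Rsph9 by 0.32, Ccdc151 by 0.42, Tekt2 by 0.47 and Dnaaf2 by -0.51. Dnaaf2 lies on chromosome 12, one of those reported as aneuploid. The level of this chromosome was built as for chromosome 11, over 454 genes. It was -0.34 to -0.28 in the MEF-1 clones and 0.29 to 0.33 in the MEF-2 clones. The part of this level in the difference of Dnaaf2 was not tested. Over both lists 13 of 36 tested genes were called higher in MEF-1 (36.1%) and 3 lower (8.33%), beside 28.6% and 27.5% of all genes tested. The 13 include Rsph1 and Mcidas, whose calls are not read, as given below, so nothing is read from the share of 36.1%. Foxj1, the main regulator of multiciliated cells, was at 5.12 to 5.72 in MEF-1 and 5.40 to 6.38 in MEF-2 and was not called, and Tekt1 was at the level of genes without reads, -2.29 to -2.26. Of 5 multiciliated cell markers 4 were tested, 1 (Rsph1) was called higher in MEF-1 and 0 lower. Rsph1 was at the level of a gene with no reads in the 7 MEF-2 clones, at 0.62 to 0.66 (Pearson r with that level 0.9997), and at 0.65 to 2.05 in the MEF-1 clones. With no MEF-2 clone above that level its difference could only be positive, so its call is not read. Mcidas, also among the 9 higher, lay at 0.23 to 0.25 in 6 of the 7 MEF-2 clones and at 0.39 to 0.76 in the MEF-1 clones, and its call is not read either. Their summed level was 6.84 to 8.21 in MEF-1 and 7.14 to 9.06 in MEF-2, where the top value came from Hydin in MEF-2 line 7 (8.53, against at most 2.55 in the other 6 clones).

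**Figure D3:**
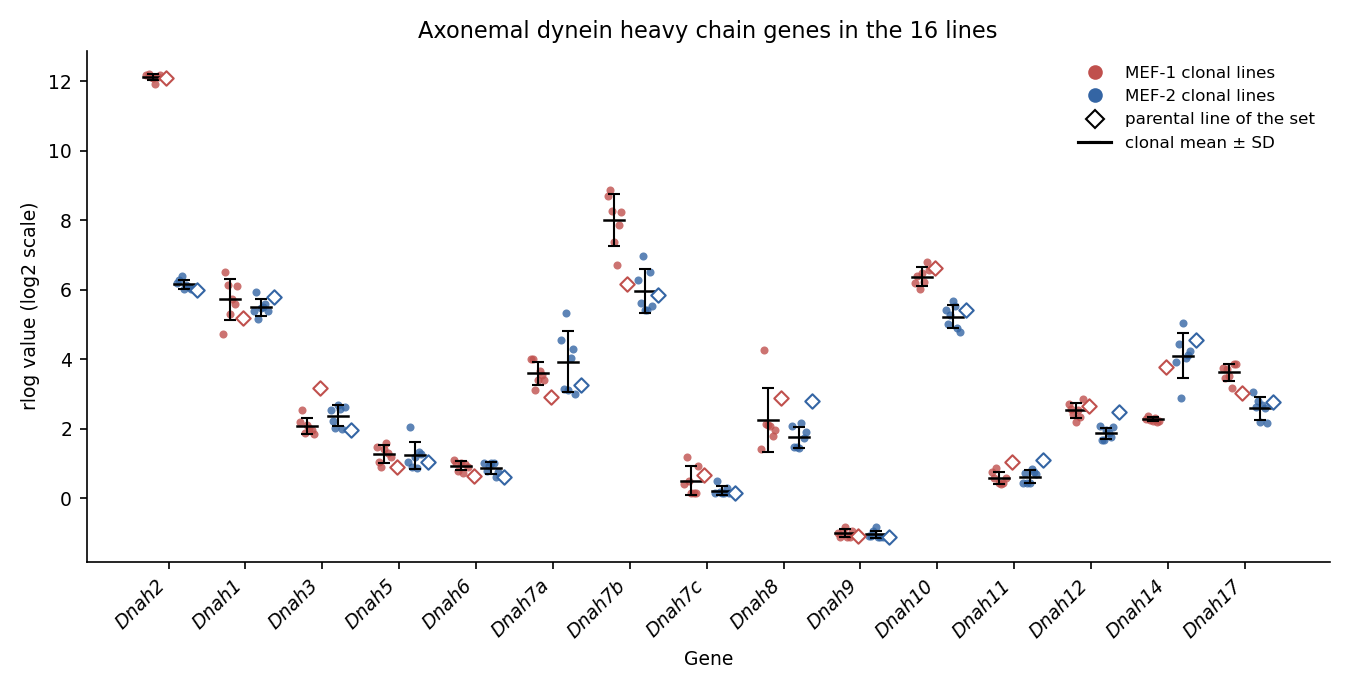
rlog values (log2 scale) of Dnah2 and 14 other axonemal dynein heavy chain genes; points are clonal lines (red, MEF-1; blue, MEF-2), diamonds parental lines, black bars the clonal mean ± SD (n = 7). Dnah2 in MEF-1, at 12.12, is above every other gene shown, and Dnah7b and Dnah14 differ by 2.04 and -1.83. Heights are not divided by gene length.

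Of the genes that act with p53, more were called lower than higher in MEF-1, and a link to the Trp53 level was not tested. The list was chosen with earlier results of these data known, so its shares and median are a description only. All 36 genes of the list were tested; 19 were lower (52.8%, against 27.5% of all genes tested), 5 higher (13.9%, against 28.6%) and 12 not called, with a median of -0.48 against 0.0043 over all genes. Cdkn1a, which encodes the cell cycle inhibitor p21 and is a main p53 target, was at 8.66 to 10.41 in the MEF-1 clones and 11.58 to 12.73 in the MEF-2 clones, a difference of -2.61 (SE 0.23, limma adjusted p = 2.5e-07). Ccng1, another p53 target, was lower without overlap by -1.53 (SE 0.09, limma adjusted p = 2.3e-09). Eda2r, a death receptor gene that lies on the X chromosome, while MEF-1 is male and MEF-2 female, a part that was not tested, differed by -3.32 (SE 0.53) and Pmaip1, which encodes NOXA, by -1.88 (SE 0.39), and both overlapped between the sets. Chromosome 18, which holds Pmaip1, is one of those reported as aneuploid. Its level was -0.50 to 0.16 in the MEF-1 clones and 0.11 to 0.15 in the MEF-2 clones (367 genes). The part of this level in the result was not tested. Cdkn2a was higher, at 13.14 to 13.70 in MEF-1 and 10.62 to 11.42 in MEF-2, by 2.21 (SE 0.13, limma adjusted p = 2.8e-09). This value is for the gene as a whole, so a level of ARF is not read from it. Trp63, a p53 paralogue, was at 9.97 to 10.85 in MEF-1 against 8.27 to 9.46 in MEF-2 (limma adjusted p = 9e-06). Between the parental lines Cdkn1a differed by -0.75 and Eda2r by -1.16, less than between the clones, and Cdkn2a by 2.20. The list's median was -0.14 between the parental lines, nearer 0 than between the clones. All 19 genes called lower were lower in the MEF-1 parental line too, some by little, such as Apaf1 at -0.12, Chek2 at -0.05 and Ppm1d at -0.01. Ccng1 differed by -0.48 there, against -1.53 between the clones.

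**Figure D4:**
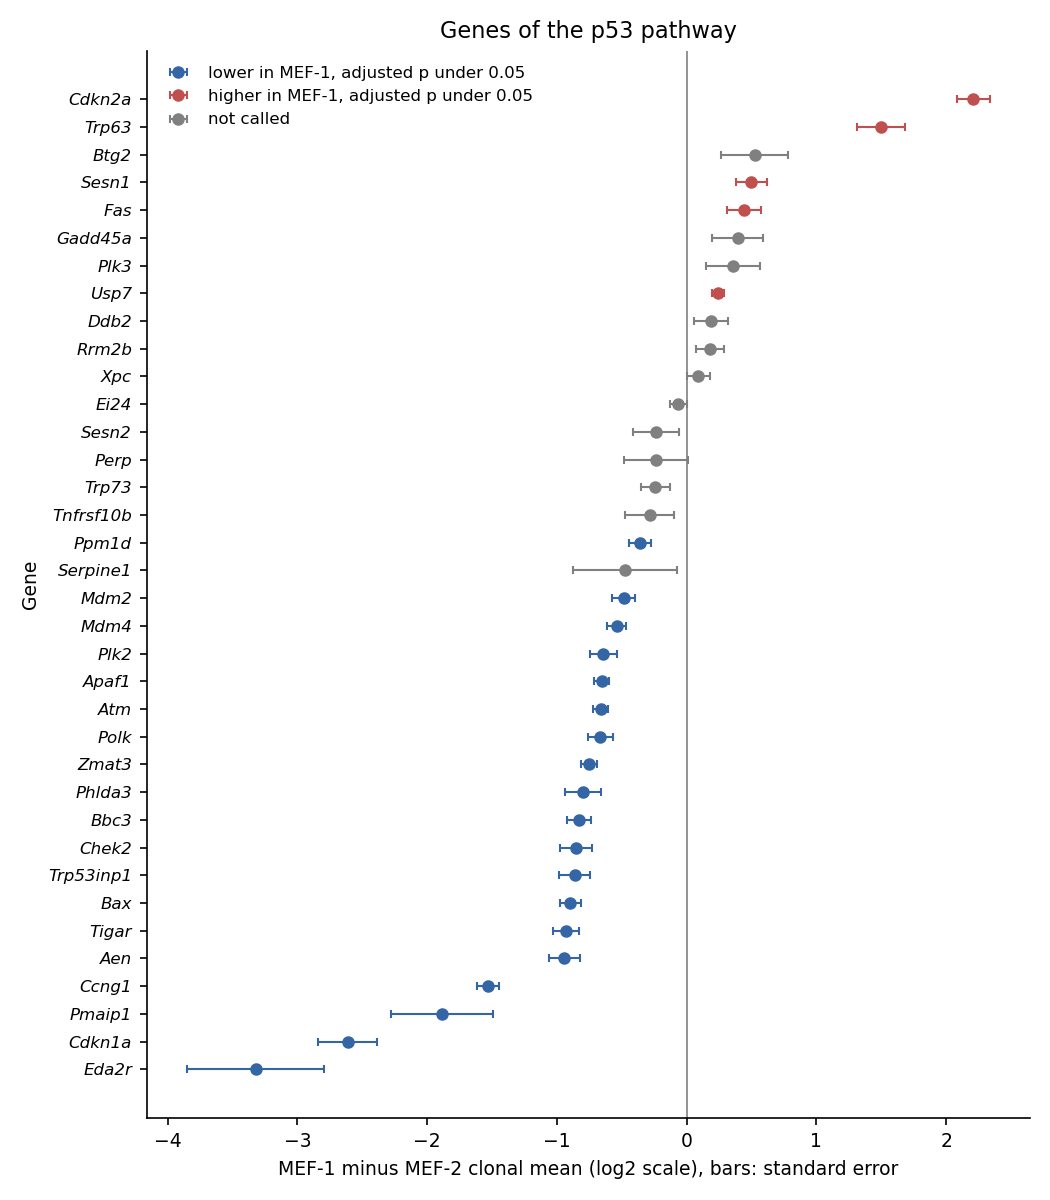
MEF-1 minus MEF-2 difference of clonal means (log2 scale; bars, standard error; n = 7 each) of 36 p53 pathway genes; blue, called lower in MEF-1; red, called higher; grey, not called. The differences run from -3.32 for Eda2r to 2.21 for Cdkn2a, with 19 blue, 5 red and 12 grey points.

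Partners and paralogues of the other genes were called in both directions, 12 higher and 12 lower of 38 tested (31.6% each, beside 28.6% and 27.5% of all genes tested), with a median of 0.02. The 12 higher include the Y-linked Uty, which could only be called higher, so its call is not read and nothing is read from the higher share. The 6 with the largest differences, named next with Uty among them, were all higher in MEF-1. Tert, the catalytic subunit of telomerase, which the Wrap53 protein serves, was at 8.47 to 9.17 in the MEF-1 clones and 5.01 to 7.36 in the MEF-2 clones, higher by 3.14 (SE 0.30, limma adjusted p = 6e-07). Smox, a spermine oxidase of the polyamine pathway of Sat2, was higher by 3.08 (SE 0.12, limma adjusted p = 7.5e-11), though by 0.32 between the parental lines. Esr1, an oestrogen receptor gene, was higher by 3.11 (SE 0.17). Uty, the Y-linked relative of Kdm6a in the family of Kdm6b, was at the level of a gene with no reads in MEF-2, so the size of its difference is not given. The Eph receptors Ephb6 and Ephb1, of the family that binds Efnb3, were higher by 1.86 (SE 0.25) and 1.72 (SE 0.42). Ephb1 overlapped between the sets, and Ephb6 differed by -0.42 between the parental lines. The 12 called lower included Epha4, an Eph receptor, at -0.98 (SE 0.19) and Ezh2, the H3K27 methyltransferase that works against Kdm6b, at -0.97 (SE 0.12).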

How the data were processed

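Total RNA, depleted of ribosomal RNA, was sequenced from 16 lines with a directional kit. Per the study's methods, the authors trimmed reads with Trim Galore 0.6.0, quantified them against Ensembl release 102 with Salmon 1.5.2 and transformed the counts with DESeq2 1.24.0 to rlog. The deposited table holds these log2 values for 54453 genes in 16 lines, with no counts, and each line counted as 1 replicate. No 2 lines held identical values.

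Genes were matched by Ensembl ID to GENCODE M21 (GRCm38, mm10), which gave names to 54200 genes, 21872 of them protein-coding. Those with an average above 0 (15285) were fitted with limma 3.58.1 (R 4.3.3, trended variance prior), 7 against 7 clonal lines, with Benjamini-Hochberg adjustment over all genes tested and a call at an adjusted p under 0.05. Clonal and parental lines were compared in a fit of 4 groups. The fits were first tested on simulated data with 200 genes shifted by 1 on the log2 scale. Of these, 169 were recovered between the clonal sets and 114 between MEF-1 clonal and parental lines. A gene without a call may therefore still differ. Relations and the chromosome level were tested by exact permutation in Python 3.11.15. The clonal lines came from separate cells of 1 embryo per set, so p-values measure the spread between clones.

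Named were all 10 genes, the genes within 500 kb without overlap between the sets, at most 6 genes called per list with a difference over 1, and the 5 genes most like Dnah2. Others named were chosen after their values were seen, as were the bounds of the run, the comparison with Y-linked genes and the shared run of bases. The 10 genes and the gene lists were chosen with earlier results of these data known. Counts, shares and medians of the lists are therefore a description, and no support is drawn from them. The lists were p53 pathway, axonemal dyneins, motile cilium genes, partners and paralogues, and markers of fibroblasts and of multiciliated, epithelial, endothelial, leukocyte, muscle, neural and liver cells. Promoter sequences were taken from RefSeq on GRCm38.p6. The alternatives tried were other low-value filters, no trend, centring of lines, parental lines added, a replicate block, and each line left out in turn.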

Additional observations from a re-analysis of the deposited data

Results flagged for a closer look

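In sets of 7 clonal lines, 1 line was held to stand apart where its gap to the next line, as a share of the set's range, passed Dixon's critical value. Of 122 sets examined (60 genes and the level of chromosome 11), 15 had such a line, and chance gives about 1 in 20 sets, or 6.1. Among the genes around Trp53, Dnah2 was lowest in MEF-1 line 5 (11.93, next line 12.11), Atp1b2 highest in MEF-1 line 2 (8.22, next 7.41), Shbg highest in MEF-1 line 5 (-2.06, next -2.10) and Fxr2 lowest in MEF-2 line 6 (12.66, next 12.79). In the run of neighbouring genes, Mpdu1 and Polr2a were lowest in MEF-1 line 4 (9.38 and 13.79), and Senp3 was lowest in MEF-1 line 2 (11.71).

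In the p53 pathway, Eda2r was lowest in MEF-2 line 2 (6.81, next line 10.14) and Cdkn2a highest in MEF-1 line 7 (13.70). Dnaaf2 was lowest in MEF-1 line 3 (8.23) and Tert highest in MEF-2 line 6 (7.36, next line 5.66). The Y-linked genes Uty (8.84) and Eif2s3y (8.63) were lowest in MEF-1 line 5, as was Nwd1 (4.13, next line 4.95), which is among the genes most like Dnah2 within the sets. The chromosome 11 level was lowest in MEF-1 line 6 (-0.12). What sets these lines apart was not tested.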

How the results depend on the processing

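The calls of the 10 genes between the clonal sets are a description, since that contrast chose them, and no support is drawn from them. Their number was 7, or 8 with Kdm6b under 6 of 20 alternatives, when the parental lines were added or when MEF-1 line 1, 2 or 3 or MEF-2 line 3 or 5 was left out. Of 180 differences recomputed for the 10 genes, 178 moved by less than the spread between lines and 0 changed sign; the other 2, of Shbg, were 0.03 and 0.02. Of the genes tested, the difference of Efnb3 (-0.25) alone moved by over 1.5 times, to -0.11 without MEF-2 line 3 and -0.38 without MEF-2 line 2. The fit with the clone number as a replicate block called 8226 genes against 8573 without it. The number is only a name, since same-numbered clones deviated together with correlations from -0.13 to 0.20, and the block changed no call of the 10 genes. With genes above the 40th percentile only, the calls among dynein and cilium genes were 7 of 18 tested instead of 16 of 36, since fewer genes were tested. Calls between MEF-1 clonal and parental lines were 11 under that filter and 33 with lines centred on their autosomal median, against 21, and ranged from 6 to 336 with a line left out; the cause was not tested. The chromosome 11 level ranged from -0.0215 to 0.0038 with a line left out, and its sign changed without MEF-1 line 6 (0.0038). The values are RNA levels from 1 library per line with unknown depth, rlog shrinks low genes, and each set is 1 embryo, so the results hold for these lines.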
